A study of Mus musculus with 384 samples.

Results

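*Hsp90aa1* and *Cct7*, a pair of genes for cytosolic protein-folding machines, are described here in the brain libraries of 32 mice. They were taken by name from a table of 69 targeted RNA assays, in which 2 rows carry one of these symbols before the first dot of the row identifier, one row for each gene. *Hsp90aa1* (ENSMUSG00000021270) is found at chr12:110690605-110702728 (minus strand) of the mouse build GRCm38, and its assay is placed on transcript NM_010480. *Cct7* (ENSMUSG00000030007) is found at chr6:85451514-85468475 (plus strand), and its assay is placed on NM_007638. Both are annotated as protein coding, and the position of each amplicon within its transcript is not given in the sources used here.

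HSP90 is an abundant chaperone that binds proteins which are nearly folded and holds them in a state from which they can be activated. *Hsp90aa1* encodes its stress-inducible cytosolic alpha form. Its clients include the glucocorticoid receptor, which needs HSP90 to bind hormone, and the kinase AKT, while FKBP5 is a co-chaperone in the receptor complex and is itself induced by glucocorticoids. *Cct7* encodes the eta subunit of TRiC (also called CCT), a double-ring chaperonin in whose chamber newly made actin and tubulin fold. Both machines hydrolyse ATP, and neurons use both for the upkeep of their cytoskeleton and signalling proteins.

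The study asked how social experience in early life and in adulthood acts on gene expression in the brain, and its design text names male Balb/c mice that grew up with scarce nesting material or with daily handling and that later met social defeat or lived beside an ovariectomized female. The sample labels use other words. They name Co naive, Co inject, MS naive and MS inject as 4 groups of 8 mice each, in which MS and Co are values of a status field and inject and naive values of an injection field. As no source used here pairs these names with the rearing or housing conditions, no value below is given for such a condition. Each of the 32 mice gave a micropunch of 12 regions, so the labels list 384 samples, of which 380 have values. The design text says that animals from an unmanipulated environment were left out, and how this bears on the label naive is not given in the sources used here. A micropunch holds every cell type of the tissue. Fewer cells of a type and less RNA per cell can therefore not be told apart. The labels give an age of postnatal day 9, whereas the methods place the end of the experiment in adulthood. The region labels are AMY (amygdala), BNST (bed nucleus of the stria terminalis), CER (cerebellum), PFC (prefrontal cortex), PVN (paraventricular nucleus of the hypothalamus), Pit, the dorsal and ventral hippocampal fields dCA1, vCA1, dCA3 and vCA3, and the dorsal and ventral dentate gyrus (dDG and vDG). Pit stands where the methods name the nucleus accumbens.

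The method reads a short amplicon from each of the 69 targeted transcripts, so that the assays of a library compete for its reads. A value is the number of reads divided by the size factor of its library, called normalized reads below. The depth of a library was 139846 reads at the median (12898 to 261007). *Hsp90aa1* took a median of 12.2% of the reads of a library (2.60% to 28.4%) and *Cct7* a median of 0.977% (0.254% to 2.87%). The lowest number of reads behind a value was 1227 for *Hsp90aa1* and 82 for *Cct7*, both in vCA1, so no value of either gene lay near the limit of detection. Reads copied by PCR are not independent molecules. Primers of different assays also differ in efficiency, and levels were therefore compared between libraries and never between the 2 genes.

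Some libraries stood apart from others with the same region label, and this touches every comparison of regions. In the 95 libraries labelled Pit, dDG or vDG, *Anxa2*, which encodes a calcium-dependent membrane-binding protein, fell into separate ranges, and 31 libraries lay in the upper one (16 of 32 in Pit, 8 of 32 in dDG and 7 of 31 in vDG). In the 96 libraries labelled CER, dCA3 or vCA3, *Ociad2* was split in the same way, with 32 libraries in the lower range (8 of 32 in CER, 8 of 32 in dCA3 and 16 of 32 in vCA3). In each of these 6 labels, the label groups had equal numbers of libraries in each range, except that vDG is short of one library in Co naive. According to the methods, a library plate held 3 regions, and a plate column held 2 samples of each experimental group. Which regions shared a plate is not stated. In these 6 labels, the widest interval without a library was 2.67 to 3.14 on the log2 scale for *Anxa2* and 1.15 to 1.49 for *Ociad2*, with at least 4 libraries on each side, and they are called the wide-gap labels below. *Ociad2* was also uneven in PVN, dCA1 and vCA1, with narrower intervals of 0.46, 0.66 and 0.60, below which lay 7 of 30, 7 of 32 and 16 of 32 libraries, and the 16 of vCA1 were 4 from each label group. In AMY, BNST and PFC, its widest interval was 0.15 to 0.21. The region labels of the 6 wide-gap names are thus in doubt for some libraries, and those of PVN, dCA1 and vCA1 may be as well, so values are given by label, and within the ranges where they differ.

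The promoter of *Cct7* is shown because its mRNA moved together with that of other genes from library to library, as described further on. In the RefSeq table used here (build GRCm38.p6), 1 of the 2 members has an entry, and *Hsp90aa1* was not matched. *Psmb3*, the gene nearest to both members across libraries, is printed beside it. It encodes a subunit of the proteasome, the particle that degrades proteins tagged with ubiquitin. Each sequence runs 5′ to 3′ on the plus strand over 300 bases, from 250 before to 50 after the start that the table uses, which for *Cct7* is not the annotated gene start given above, and capitals mark CCAAT on either strand (ATTGG on the strand printed), the box bound by the factor NF-Y. *Cct7* is at chr6:85451255-85451554 and *Psmb3* at chr11:97703184-97703483.
Cct7: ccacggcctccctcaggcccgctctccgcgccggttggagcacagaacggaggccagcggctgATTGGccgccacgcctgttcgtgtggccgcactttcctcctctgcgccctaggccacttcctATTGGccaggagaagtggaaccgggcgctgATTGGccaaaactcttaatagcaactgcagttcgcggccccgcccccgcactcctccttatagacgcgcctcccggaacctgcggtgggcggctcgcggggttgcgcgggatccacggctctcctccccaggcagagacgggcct
Psmb3: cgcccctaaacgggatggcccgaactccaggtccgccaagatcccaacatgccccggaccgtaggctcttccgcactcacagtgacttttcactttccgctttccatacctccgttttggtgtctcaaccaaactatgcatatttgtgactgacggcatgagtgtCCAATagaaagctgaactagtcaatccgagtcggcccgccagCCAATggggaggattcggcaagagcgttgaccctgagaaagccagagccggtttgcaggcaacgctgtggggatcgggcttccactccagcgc
The *Cct7* promoter held 3 matches to CCAAT, all on the minus strand, and the *Psmb3* promoter held 2, both on the plus strand. At least 1 match was present in 37.4% of the 32851 promoters of this length, at least 2 in 11.7% and at least 3 in 3.37%. GAANNTTC and TTCNNGAA, the spacings of the heat shock element at which HSF1 acts on chaperone genes, each read the same on both strands, and neither was present in these 300 bases of *Cct7* or *Psmb3*. They occurred in 7.86% and 8.52% of all promoters. AGAACA, the core hexamer of glucocorticoid response elements, was likewise searched on both strands and was not present in either window, while 19.0% of promoters held it. The next genes in likeness did not share one pattern. *Fam117b*, the next for *Hsp90aa1*, held 2 matches to CCAAT, and *Nedd4*, the next for *Cct7*, has 2 entries, of which one held 0 and the other 1 match to CCAAT and 1 to AGAACA. These matches describe letters in a window, and no binding was measured.

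*Hsp90aa1* had a median of 15413 normalized reads over all 380 libraries (3249 to 43307), which put its assay at rank 3 of 69, a rank that also depends on the primers. By region label, its median was lowest in Pit (9496, from 3249 to 26104) and dDG (10133, from 4739 to 15241). It was 11798 in dCA3 (6898 to 30343), 12573 in CER (7571 to 23731), 13182 in vDG (5211 to 24571) and 13523 in vCA3 (7544 to 29969). A step upward followed, to 18518 in PFC (9934 to 28476) and 18691 in AMY (11124 to 26905). Medians in dCA1 (20341, from 9355 to 30751), BNST (20588, from 11633 to 33190) and PVN (20663, from 6969 to 43307) were close to each other, and vCA1 was highest at 23121 (9847 to 31457). The ranges of all labels overlapped, and PVN held the highest single library while Pit held the lowest.

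The assay of *Cct7* stood at rank 11, with a median of 1302 normalized reads (320 to 3704). Its lowest medians were in dCA3 (828, from 440 to 1807), vCA3 (896, from 497 to 1911) and CER (984, from 663 to 1241). In dDG the median was 1087 (554 to 2049), in vDG 1257 (533 to 1846) and in Pit 1267 (458 to 2195). The other medians, in rising order, were those of dCA1 (1405, from 320 to 2351), PVN (1459, from 630 to 3704), vCA1 (1634, from 760 to 2516), PFC (1684, from 688 to 2252), AMY (1684, from 1096 to 2704) and BNST (1721, from 660 to 2746). For both genes, the 6 labels with the lowest medians were the 6 wide-gap labels. This order rests on all libraries of a label. In the upper *Ociad2* range of vCA3, the median of *Hsp90aa1* was 22920, above those of PFC and AMY, so those libraries showed no step from vCA3 up to PFC.

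**Figure D1:**
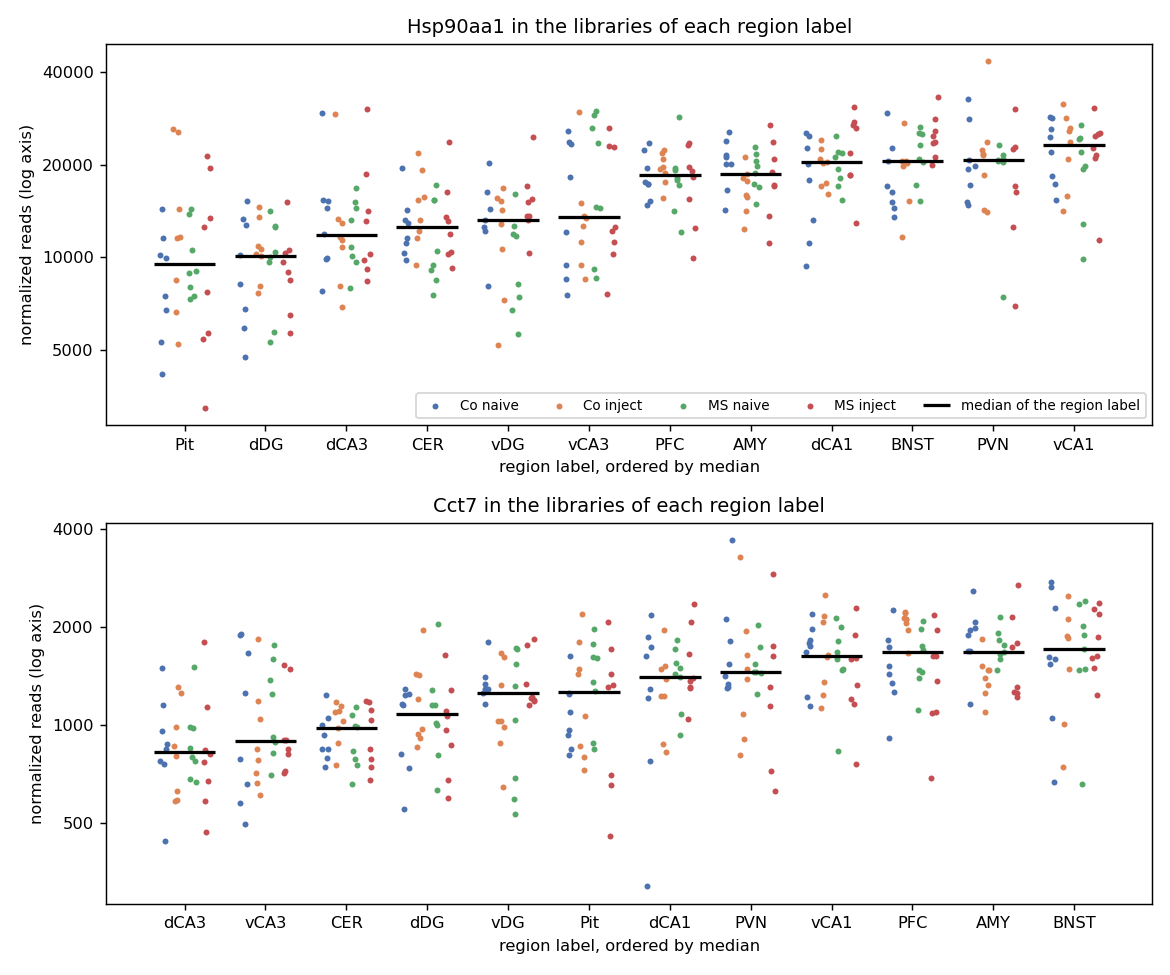
Normalized reads of *Hsp90aa1* (top) and *Cct7* (bottom) on log axes, with one point for each of the 380 libraries, coloured by label group, and a bar at the median of each region label, in the order of the medians. Both genes have their 6 lowest medians in Pit, dDG, vDG, CER, dCA3 and vCA3 when all libraries of a label are taken, and the colours are mixed within each region.

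Pairs of region labels were compared with limma on log2(normalized reads + 1) over all assays. A pair was called different at a Benjamini-Hochberg adjusted p under 0.1, taken over all 4554 combinations of assay and pair. Of the 66 pairs, 47 were called for *Hsp90aa1* and 44 for *Cct7*. Across all assays, 51.1% of the tests were called, and the median assay had 35 called pairs. The greatest difference for *Hsp90aa1* was between vCA1 and dDG, where vCA1 was 2.25-fold higher (log2 difference 1.17 ± 0.12, SE, limma adjusted p = 6.54e-18). For *Cct7* it was between BNST and dCA3, with BNST 1.94-fold higher (log2 difference 0.96 ± 0.12, SE, limma adjusted p = 4.80e-13).

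These calls were divided unevenly among the labels. All 36 pairs of a wide-gap label with one of the other 6 were called for *Hsp90aa1*, and 34 of 36 for *Cct7*, each with the lower level in the wide-gap label. The exceptions for *Cct7* were dCA1 against Pit and against vDG. Among all assays, 64.7% of such tests were called, and of these 1608 calls 541 were lower in the wide-gap label, so this direction was the less frequent one. Without the libraries in the upper *Anxa2* and lower *Ociad2* ranges, 30 of 36 pairs were called for *Hsp90aa1* and 34 for *Cct7*, against 57.1% of the tests of all assays (524 of these 1419 calls lower in the wide-gap label), and the 6 lost pairs of *Hsp90aa1* were those of vCA3. With libraries rescaled to the same total, 32 and 29 of 36 were called, against 69.9% of the tests of all assays (383 of 1736 calls lower in the wide-gap label). Between the 6 labels without a wide gap, 1 of 15 pairs was called for *Hsp90aa1* and 3 of 15 for *Cct7*, against 24.4% of the tests of all assays. With libraries rescaled to the same total, the counts were 5 and 7 of 15, against 27.9% of the tests of all assays, so whether the members were called less or more often than other assays depends on the scaling. The pair called for *Hsp90aa1* was vCA1 over PFC by 0.24 on the log2 scale (limma adjusted p = 0.0983). The 3 pairs of *Cct7* all had dCA1 as the lower region, by 0.29 against AMY, 0.30 against BNST and 0.26 against PFC. When the libraries below the *Ociad2* interval in PVN, dCA1 and vCA1 were left out too, the pair of *Hsp90aa1* was lost and *Cct7* had 6 called pairs, with dCA1 and PVN each lower than AMY, BNST and PFC (27.2% of the tests of all assays). Of the 36 pairs with one wide-gap label, 30 were then called for *Hsp90aa1* and 31 for *Cct7*. Among all assays 55.4% of such tests were called, and 513 of these 1377 calls were lower in the wide-gap label. Over the labels without a wide gap the median library had 20282 normalized reads of *Hsp90aa1* and 1604 of *Cct7*, and over the wide-gap labels 11725 and 1014. The libraries also differed in depth, with a median of 106245 reads in the former and 161628 in the latter. Between labels with a wide gap in different genes, 7 of 9 pairs were called for each member (62.8% of the tests of all assays), and between labels with a wide gap in the same gene 3 of 6 for *Hsp90aa1* and 0 of 6 for *Cct7* (18.8%). With libraries rescaled to the same total, *Hsp90aa1* had 7 of 9 and 2 of 6, and *Cct7* had 5 of 9 and 0 of 6. Of the tests of all assays, 58.0% and 16.7% were then called. Without the upper *Anxa2* and lower *Ociad2* ranges, *Cct7* had 2 of 9 called pairs of the former kind (52.3% of the tests of all assays) and 2 of 6 of the latter (10.1%), while *Hsp90aa1* had 7 of 9 and 4 of 6. The part of depth, and of the plate, in these differences was not tested, and as the plate of a region is not stated, region and plate cannot be told apart.

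Neighbours in the order of medians are near to each other by choice, and their tests only say where a step exceeds its error. For *Hsp90aa1*, 3 of 11 neighbouring pairs were called, dCA3 over dDG (0.40 ± 0.12, SE), vCA3 over vDG (0.29 ± 0.12) and PFC over vCA3 (0.29 ± 0.12), all log2 differences. The last of these was lost, and its sign turned (-0.0705, limma adjusted p = 0.713), when the libraries in the upper *Anxa2* and lower *Ociad2* ranges were left out. For *Cct7*, 0 of 11 neighbouring pairs were called with limma, and 0 had an unadjusted p under 0.05, so its order is a description of medians.

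In each of the 3 dorsal and ventral pairs in the hippocampus, *Hsp90aa1* was lower on the dorsal side, and 2 of these differences passed. Among all assays, 16.4% of the tests over the 3 pairs were called (5.8% in dDG, 27.5% in dCA3 and 15.9% in dCA1). The difference of *Hsp90aa1* was -0.35 ± 0.12 (SE, log2) for dDG against vDG (limma adjusted p = 0.0117) and -0.25 ± 0.12 for dCA3 against vCA3 (limma adjusted p = 0.0846). For dCA1 against vCA1, it was -0.13 ± 0.12 with a 95% interval from -0.37 to 0.11. *Cct7* passed in none of the 3, with -0.19, -0.22 and -0.23 in dDG, dCA3 and dCA1, respectively. Without the upper *Anxa2* and lower *Ociad2* ranges, dCA3 minus vCA3 was -0.51 for *Hsp90aa1* (limma adjusted p = 0.00112) and passed for *Cct7* too (-0.43, limma adjusted p = 0.0117), where 23.2% of all assays passed. When the lower *Ociad2* libraries of dCA1 and vCA1 were left out as well, dCA1 minus vCA1 was -0.0411 for *Hsp90aa1* and -0.21 for *Cct7*, and neither passed (limma adjusted p = 0.846 and 0.239). When all libraries were rescaled to the same total, the difference of dCA1 to vCA1 passed for both genes (-0.29 and -0.39), as did 34.8% of all assays for this pair, 23 of the 24 with the lower level on the dorsal side, and that of dCA3 to vCA3 was lost for *Hsp90aa1* (limma adjusted p = 0.124).

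Within the labels, the levels of the members differed between the ranges in some cases and not in others, as a description without a test. In vCA3, the median of *Hsp90aa1* was 22920 in the 16 libraries of the upper *Ociad2* range (9458 to 29617) and 10711 in the 16 of the lower range (7544 to 29969). *Cct7* had medians of 1219 and 770 in the same libraries. In Pit, *Cct7* had a median of 1616 in the 16 libraries of the upper *Anxa2* range (658 to 2195) and 906 in the 16 of the lower range (458 to 1440), whereas *Hsp90aa1* was nearly equal, at 9634 and 9175. In dDG, *Hsp90aa1* was lower in the 8 libraries of the upper *Anxa2* range (median 7062) than in the other 24 (10366), and *Cct7* was higher (1361 against 993). In vDG the medians of the upper and lower *Anxa2* range were 11870 and 13399 for *Hsp90aa1* and 1339 and 1206 for *Cct7*. In CER they were close in the upper and lower *Ociad2* range, at 12573 and 11809 for *Hsp90aa1* and 991 and 840 for *Cct7*. In dCA3, *Hsp90aa1* was higher in the upper range (13020 against 9849), and *Cct7* was slightly lower (810 against 858). In PVN, dCA1 and vCA1, both genes had the higher median below the *Ociad2* interval, at 28147 against 19812, 22643 against 18498 and 24738 against 21407 for *Hsp90aa1*, and at 2119 against 1415, 1960 against 1315 and 1821 against 1544 for *Cct7*. The ranges of values overlapped in each of these comparisons.

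The label groups were compared within each region, with terms for status, injection and their interaction. Neither gene passed in any of the 12 regions for any of the 3 terms (limma, adjusted p under 0.1 within a region and term). Among all assays, 0% of 826 tests passed for status, 0.121% for injection and 0% for the interaction. At an unadjusted p under 0.05, 22, 31 and 19 tests of all assays were found, and 1, 1 and 2 of the 24 tests of the members for each term. Within a region, the highest of the 4 group medians was 1.12 to 1.54 times the lowest for *Hsp90aa1* and 1.08 to 1.44 times the lowest for *Cct7*. With the range of *Anxa2* or *Ociad2* as a covariate in the 9 labels that have one, the members again had 0 calls (lowest limma adjusted p = 0.255). With 5 principal components of the residuals as covariates, which shrink the error by construction, they had 2, 2 and 3 calls of 24 for status, injection and interaction, against 4.6%, 4.0% and 3.8% of the 826 tests of all assays. These were *Hsp90aa1* in BNST and vCA3 for status, both genes in vCA3 for injection, and both genes in vDG and *Cct7* in Pit for the interaction. The SD of a group of mice on the log2 scale had a median of 0.42 for *Hsp90aa1* and 0.43 for *Cct7*.

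The lowest unadjusted p for status belonged to *Hsp90aa1* in BNST. Its median there was 16674 normalized reads in Co naive (13509 to 29386, n = 8), 20282 in Co inject (11633 to 27277, n = 7), 22036 in MS naive (15244 to 26420, n = 8) and 24212 in MS inject (19987 to 33190, n = 8). The groups overlapped. MS exceeded Co by 0.32 ± 0.12 (SE, log2; limma adjusted p = 0.255), and *Cct7* had 0.12 ± 0.21 in the same libraries.

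For injection it belonged to *Cct7* in AMY, where the medians were 1928 in Co naive (1165 to 2583) and 1722 in MS naive (1479 to 2152), against 1433 in Co inject (1096 to 1843) and 1525 in MS inject (1223 to 2704), with 8 mice in each. The inject libraries had the lower medians but overlapped with the naive ones (-0.25 ± 0.11, SE, log2; limma adjusted p = 0.411). *Hsp90aa1* differed by -0.18 ± 0.11 there.

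For the interaction, which is the inject minus naive difference in MS minus that in Co, *Hsp90aa1* in vDG had the lowest p. Its medians were 13182 in Co naive (8071 to 20283, n = 7), 13542 in Co inject (5211 to 16804), 9966 in MS naive (5640 to 16037) and 14347 in MS inject (10360 to 24571). The interaction was 0.88 ± 0.35 (SE, log2; limma adjusted p = 0.393) and 0.66 ± 0.33 for *Cct7* (limma adjusted p = 0.639). In PFC, *Cct7* had an interaction of -0.67 ± 0.27 (SE, log2; limma adjusted p = 0.973), with a median of 2123 in Co inject (1667 to 2222) above those of Co naive (1480), MS naive (1588) and MS inject (1500).

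Whether the label differences themselves varied between regions was tested with F tests of region by status and region by injection. Neither gene passed (limma adjusted p = 1.00 for both genes and both terms), and 0% of the 69 assays did for either term. At an unadjusted p under 0.05, 2 assays were found for status and 4 for injection.

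**Figure D2:**
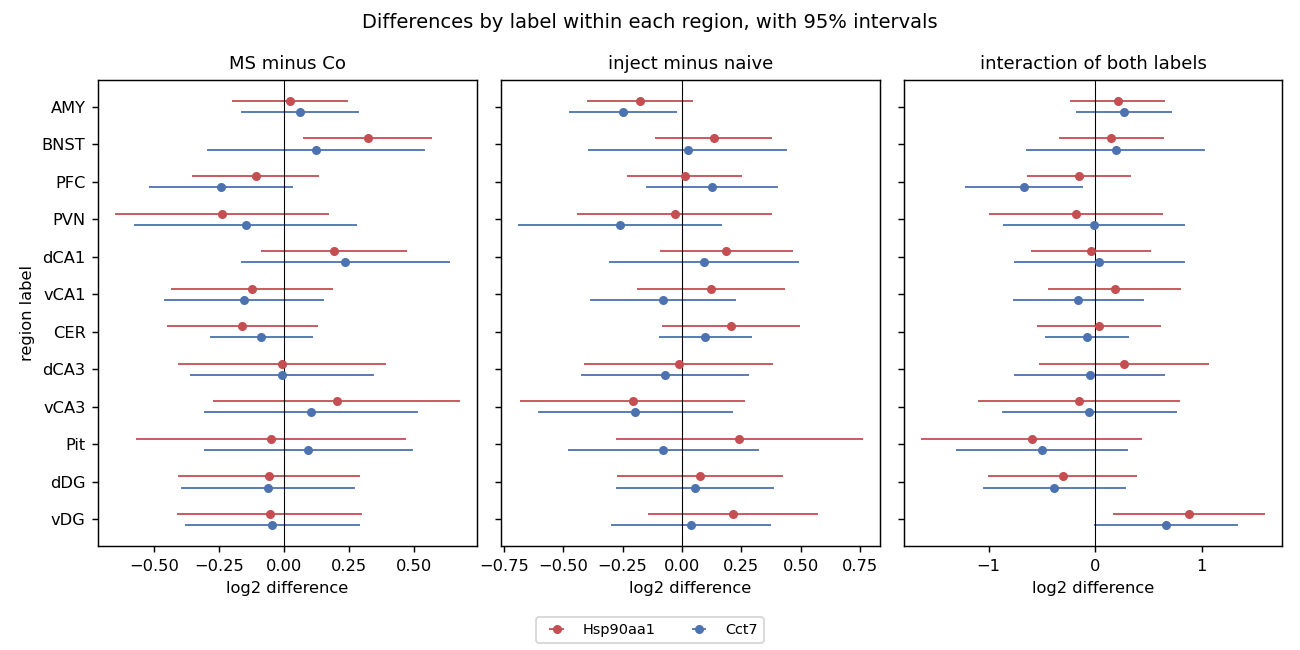
Log2 differences of *Hsp90aa1* (red) and *Cct7* (blue) by label in each region, for MS minus Co (left), inject minus naive (centre) and their interaction (right), with 95% intervals from limma. The intervals that leave out 0 are those of *Hsp90aa1* in BNST and vDG and of *Cct7* in AMY and PFC.

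The levels of *Hsp90aa1* and *Cct7* rose and fell together from library to library within a region label, each from another mouse. Over all assays, the correlation of libraries of the same mouse from different regions, estimated with limma, was 0.000945. Whether either level is a trait of the mouse was not tested. In each of the 12 region labels, Pearson's r of the log2 values over 30 to 32 libraries was above 0 and passed a two-sided permutation test with 100000 resamples, adjusted over the 12 labels (highest adjusted p = 0.0298, permutation test, in dDG). In the labels without a wide gap, r was 0.418 in AMY (rho, Spearman's rank correlation, 0.446), 0.444 in PFC (rho 0.483), 0.605 in BNST (rho 0.455), 0.736 in dCA1 (rho 0.656), 0.786 in vCA1 (rho 0.690) and 0.811 in PVN (rho 0.841). The raw permutation p was 0.0165 in AMY (adjusted p = 0.0180), 0.0118 in PFC (adjusted p = 0.0142) and 0.000320 in BNST (adjusted p = 0.000427), and at most 2.00e-05 in the other 3, where 1.00e-05 is the smallest value that these permutations can give. On either side of the *Ociad2* interval, r was 0.831 (n = 7) and 0.806 (n = 23) in PVN, 0.737 (n = 7) and 0.673 (n = 25) in dCA1 and 0.647 (n = 16) and 0.816 (n = 16) in vCA1, for the lower and the upper side (highest permutation adjusted p = 0.0524). The differences of r between labels were not tested.

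In the wide-gap labels, r was taken within each range. In Pit it was 0.877 in the lower *Anxa2* range (n = 16) and 0.840 in the upper (n = 16). In dDG it was 0.861 (n = 24) and 0.653 (n = 8), and in vDG 0.875 (n = 24) and 0.857 (n = 7). In the labels with a wide gap of *Ociad2*, r was 0.837 in the lower range (n = 8) and 0.687 in the upper (n = 24) of CER, 0.686 (n = 8) and 0.882 (n = 24) in dCA3, and 0.912 (n = 16) and 0.779 (n = 16) in vCA3. All 12 values passed the permutation test (highest adjusted p = 0.0819). Taken over all libraries of the label, r was 0.384 in dDG (rho 0.383), 0.683 in vDG (rho 0.574), 0.730 in CER (rho 0.724), 0.731 in Pit (rho 0.717), 0.832 in dCA3 (rho 0.812) and 0.879 in vCA3 (rho 0.871). In Pit, dDG and vDG, the value over all libraries was below that of either range.

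**Figure D3:**
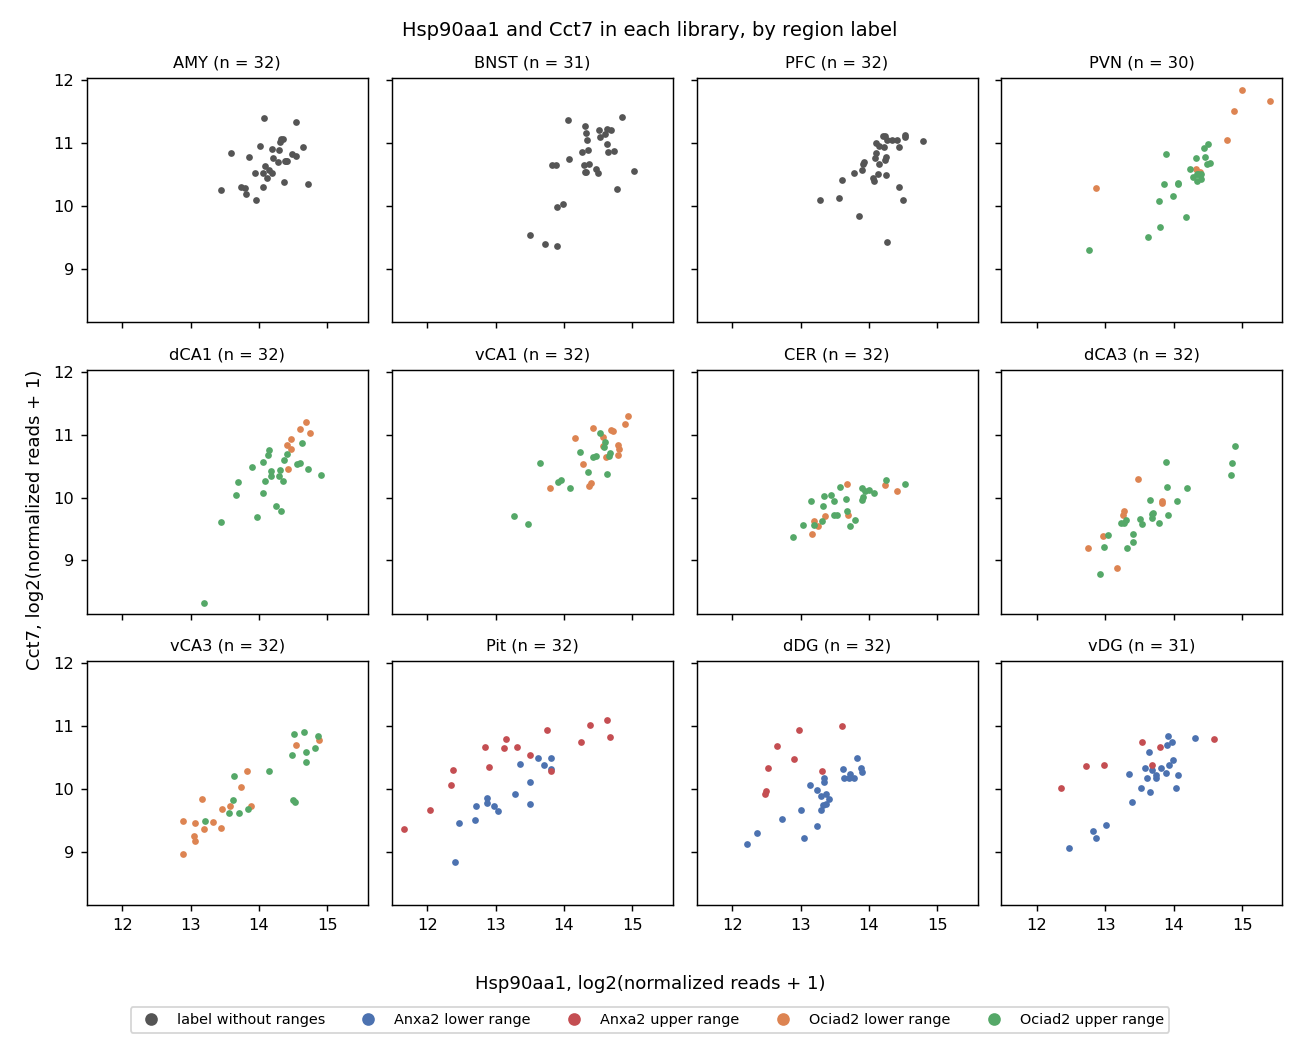
*Cct7* against *Hsp90aa1* in each library, both as log2(normalized reads + 1), with one panel for each region label and the same axes in all panels. Colours mark the ranges of *Anxa2* (Pit, dDG, vDG) and *Ociad2* (CER, dCA3, vCA3, and the narrower interval of PVN, dCA1 and vCA1), and grey marks AMY, BNST and PFC. Points rise from left to right in each panel. In dDG the libraries of the upper *Anxa2* range (red) have the higher median of *Cct7* and overlap with those of the lower range (blue).

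After the 2 libraries farthest from the median of *Hsp90aa1* were left out, r ranged from 0.178 to 0.871. It no longer passed in dDG (r = 0.178, permutation adjusted p = 0.349), so the relation over all dDG libraries did not hold without those 2, while r within the lower *Anxa2* range was 0.861. It passed in the other 11 labels. With label group means removed, r ranged from 0.311 to 0.875 and passed in all 12. Within the 48 combinations of region and label group, each with 7 or 8 mice, r was above 0 in 44 and had a median of 0.676, as a description. The 4 below 0 were AMY Co inject (-0.306), BNST MS inject (-0.319), dDG Co inject (-0.273) and dDG MS inject (-0.034).

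All pairs of assays were taken as the background of this relation. In each region label their median r lay between -0.002 and 0.070, and that of *Hsp90aa1* with *Cct7* exceeded 95% of the pairs in 10 of 12 labels. The exceptions were Pit, where it exceeded 92.7% of the pairs, and dDG, where it exceeded 72.9%. In PVN it was the highest of 2346 pairs. This background was taken over all libraries of a label. The 5th to 95th percentile of all pairs was -0.746 to 0.769 in Pit and -0.725 to 0.742 in dDG, against -0.388 to 0.391 in AMY. How the members stand among all pairs within a range was not computed. Pairs of assays in one library share its depth and its size factor. The correlation with the number of reads of the library ranged over the 12 labels from -0.340 to 0.484 for *Hsp90aa1* and from -0.490 to 0.516 for *Cct7*. With 5 principal components of the other 67 assays removed, the relation passed in 10 of 12 labels (r up to 0.809, in PVN) and was lost in AMY (r = 0.246, permutation adjusted p = 0.191) and vCA3 (r = 0.182, permutation adjusted p = 0.322). Over the 12 region medians r was 0.735 and rho 0.671, a description in which the labels without a wide gap lie at the upper end for both genes.

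**Figure D4:**
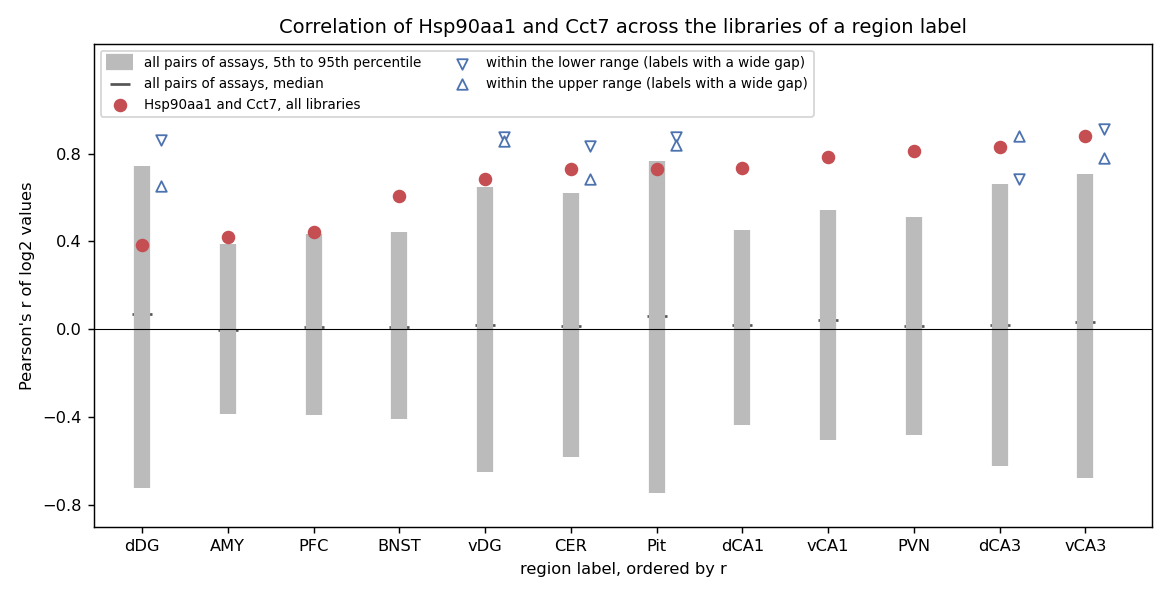
Pearson's r of *Hsp90aa1* and *Cct7* across the libraries of each region label (red points), with the 5th to 95th percentile (grey bars) and the median (dashes) of all pairs of assays in the same libraries. Triangles give r within the lower and upper range of the 6 wide-gap labels, for which no such bars were computed. The red points lie above the grey bars in 10 of 12 labels, and the triangles lie between 0.653 and 0.912.

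The assay most like both members was *Psmb3*. By the mean over the 12 labels of Spearman's rho across libraries, it had 0.651 with *Hsp90aa1* (0.377 to 0.910) and 0.675 with *Cct7* (0.388 to 0.902), and it was above 0 in all 12 labels for each. The members came next for one another, with a mean rho of 0.638. Next in order were *Fam117b* for *Hsp90aa1* (0.524) and *Nedd4*, a ubiquitin ligase, for *Cct7* (0.567). Over the 67 other assays, the median of the mean rho was 0.0498 for *Hsp90aa1* and 0.0959 for *Cct7*. No p is given for these values, since libraries share depth and tissue. These values and the mean rho values below were taken over all libraries of a label and not within the ranges. Mixed ranges can change rho, and with it the order of the assays. For the members in dDG, rho was 0.383 over all libraries, against 0.873 in the lower and 0.738 in the upper *Anxa2* range.

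By the order of the 12 region medians, *Psmb3* was again nearest to *Hsp90aa1* but not to *Cct7*. *Cct7* was most like *Mrpl54*, a protein of the mitochondrial ribosome (rho 0.958), *Polr2i*, a subunit of RNA polymerase II (0.881), and *Hist1h2al* (0.797), a histone assay whose reads may be shared with near-identical histone genes. *Hsp90aa1* was most like *Psmb3* (0.881), *Tm2d1* (0.811) and *Ccndbp1* (0.769). A gene could be near in this measure and not across the libraries of a label. *Tm2d1* had a mean rho within labels of -0.11 with *Hsp90aa1* and *Hist1h2al* of 0.04 with *Cct7*.

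Partners of HSP90 on the panel did not move with *Hsp90aa1* in one way. Of 19 co-chaperones, clients and related chaperones on a list of HSP90 partners, 3 were on the panel. The co-chaperone *Fkbp5* had a mean rho within labels of 0.299 with *Hsp90aa1*, above 0 in 11 of 12 labels, and 0.349 with *Cct7*. The clients lay on the other side. *Nr3c1*, the glucocorticoid receptor, had -0.314, above 0 in 1 of 12 labels, and *Akt1* had -0.277, above 0 in 2 of 12. They were not set apart from the panel in this. Counted from the lowest of 68 assays, they stood at ranks 13 and 14 for *Hsp90aa1*. The lowest were *Ctnnb1* (-0.577), *Dpm2* (-0.473) and *Cd47* (-0.469), which are not on this list. With *Cct7*, *Nr3c1* had -0.260 and *Akt1* -0.490. By label, *Fkbp5*, *Nr3c1* and *Akt1* passed in 0 of 108 tests (12 regions and 3 terms, limma adjusted p under 0.1), with 4 of them at an unadjusted p under 0.05 and 0% to 0.121% of the tests of all assays called. Other subunits of TRiC or of prefoldin, which hands actin to it, were not on the panel (0 of 10).

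All 10 genes of a list of ubiquitin, proteasome and ribosome genes were on the panel, and they did not share one direction either. Beside *Psmb3* and *Nedd4*, 2 of them were above 0 with both members by mean rho, the ribosomal *Rps2* (0.160 with *Hsp90aa1*, 0.253 with *Cct7*) and *Abcf1*. *Rps25* was above 0 with *Cct7* alone (0.097). The ubiquitin ligase *Peli1* (-0.417 and -0.380) was among the lowest, and the rest, *Ube2g2*, *Nedd4l*, *Stambpl1* and *Rps12*, were below 0 with both.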

How the data were processed

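Targeted RNA libraries (TruSeq Targeted RNA on a MiSeq) of 12 regions of 32 mice were analysed, grouped by the region and label group of the sample labels. Per the labels and the methods, the authors deposited a normalized signal, which is the reads of each assay divided by a size factor for each library. The authors removed reads of low quality or short length with PRINSEQ, aligned the rest with BWA to the assay manifest and normalized with DESeq2. The submitters' processing notes name mm10. The labels list 4 further samples without values. Within each library, all 24466 values above 0 were whole multiples of a single step (tolerance 0.01), which gave the reads per library. No 2 libraries were identical. PCR reads carry no molecular identifier, so precision refers to counting only.

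Values were transformed to log2(value + 1), so that a difference understates the change of low assays. Models were fitted with limma 3.58.1 in R 4.3.3 to all 69 assays, within each region for status, injection and their interaction, and over all regions, with label group as covariate, for the 66 pairs. Benjamini-Hochberg adjusted p-values were taken at 0.1, the threshold of the study. The surrogate variables of the study are not used here. Correlations were tested with 100000 permutations in Python 3.11.15 (numpy 2.4.6, scipy 1.17.1, pandas 2.3.3), and figures were drawn with matplotlib 3.10.9. The limits between ranges were 1000 normalized reads for *Anxa2* and 1200 for *Ociad2*, and in PVN, dCA1 and vCA1 the widest interval itself was the limit, chosen after the data had been seen. Named beside the members were the assays present of the fixed lists and the 3 assays with the highest mean rho within regions and the 3 with the highest rho of region medians. The members and the lists were chosen with earlier results of these data known. In a check, the libraries of a region were shuffled over the label groups, and 15 of 69 assays were changed 2-fold by status. There, limma called 78.3% of the changed assays, and 12.0% of its calls were false. Differences as small as those of the members by status, at most 0.32 on the log2 scale, were not checked. Per the methods, whole litters were assigned to the early-life conditions, and which mice shared a litter is not given in the sources used here.

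The animal numbers mark the same mouse in the 12 regions, which pairs the libraries of different regions. The correlation of libraries of a mouse, estimated with limma, was 0.000945.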

Additional observations from a re-analysis of the deposited data

Results flagged for a closer look

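In each combination of region and label group, the highest and the lowest library were compared with the rest by Dixon's test on untransformed normalized reads. The test sets about 1 in 20 groups apart by chance only where the values of a group are normal and of one kind. In 9 region labels the groups mix ranges, so the count below cannot be set against that rate. Of 96 groups (48 for each gene), 14 had a library that stood apart, 8 for *Hsp90aa1* and 6 for *Cct7*.

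In 2 cases the same library stood apart for both genes. Mouse 249 in PVN (Co inject) had 43307 normalized reads of *Hsp90aa1*, against 14071 to 23758 in the other 7, and 3276 of *Cct7*, against 810 to 1953. It lies below the *Ociad2* interval of PVN, one of the labels named in doubt above. Mouse 235 in vCA3 (Co inject) had 29617 of *Hsp90aa1*, against 8481 to 15022, and 1839 of *Cct7*, against 611 to 1186. It lies in the upper *Ociad2* range.

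For *Hsp90aa1*, the highest library of 3 of the 4 label groups of dCA3 stood apart, at 29412 in mouse 255 (Co naive), 29148 in mouse 243 (Co inject) and 30343 in mouse 81 (MS inject), all in the upper *Ociad2* range. Single libraries were also high in PFC (28476, mouse 89, MS naive) and CER (19566, mouse 227, Co naive, upper *Ociad2* range). The one low library was mouse 105 in PVN (MS naive), at 7439 against 20453 to 23245 in the other 6, and it also lies below the *Ociad2* interval.

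For *Cct7*, single libraries were high in PVN (3704, mouse 227, Co naive, below the *Ociad2* interval), dCA3 (1511, mouse 101, MS naive, upper *Ociad2* range), dDG (2049, mouse 107, MS naive, upper *Anxa2* range) and vDG (1802, mouse 259, Co naive, lower *Anxa2* range). The cause was not tested for any of these libraries.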

How the results depend on the processing

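Of 327 values recomputed under an alternative, 294 kept their side of the threshold, or stayed within 1.5 times as a count. A turn of sign was not counted as a change where neither value passed. Some alternatives leave a value as it is by construction, such as the label differences of the members with assays of a mean of at least 10. The count is therefore no measure of how firm the results are. By label, 5 principal components of the residuals as covariates gave 38, 33 and 31 calls among the 826 tests of assay and region for status, injection and interaction, with 2, 2 and 3 calls of the members. These components are taken after the label terms are fitted, so by construction the differences stay and only their error shrinks. *Hsp90aa1* then passed for status in BNST (0.32, limma adjusted p = 0.0764) and vCA3 (0.20, 0.0683) and for injection in vCA3 (-0.21, 0.0562), where *Cct7* passed too (-0.20, 0.0736), and for the interaction *Hsp90aa1* passed in vDG (0.88, 0.0161) and *Cct7* in vDG (0.66, 0.0793) and Pit (-0.50, 0.0462). Status had 1 call with a pseudocount of 0.1 and with assays of a mean of at least 10, and injection had 0 at an adjusted p of 0.05. Without 1 mouse at a time, calls over all assays ranged from 0 to 2 (status), 0 to 3 (injection) and 0 to 2 (interaction), and the members had 0 calls each time. limma voom on the recovered reads and the ranges as a covariate, both chosen after the data had been seen, gave no call of the members.

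For pairs of labels without a wide gap, *Hsp90aa1* had 0 calls with a pseudocount of 0.1, 5 with libraries rescaled to the same total and 2 without the upper *Anxa2* and lower *Ociad2* ranges, and *Cct7* had 7 when rescaled. Without those ranges *Cct7* had 2 calls for labels with a wide gap in the same gene and 2 for those with one in different genes, and 4 called differences turned in sign but did not pass, namely *Hsp90aa1* in PFC minus vCA3 (-0.0705) and AMY minus vCA3 (-0.0505), and *Cct7* in Pit minus vCA3 (-0.30) and vCA3 minus vDG (0.0471). When the lower *Ociad2* libraries of PVN, dCA1 and vCA1 were left out too, chosen after the data had been seen, *Hsp90aa1* had 0 and *Cct7* 6 calls for pairs of labels without a wide gap, *Cct7* had 2 and 3 calls for labels with a wide gap in the same and in different genes, and 6 called differences turned in sign without passing, PFC minus vCA3 of *Hsp90aa1* again with -0.0705. Between dCA3 and vCA3, *Cct7* passed without the ranges (-0.43). The mouse as a replicate block left 47 and 44 calls and changed no call of a pair. The correlation fell below the threshold in dDG when libraries were rescaled (r = 0.276) or the 2 farthest were left out (0.178), and in AMY (0.246) and vCA3 (0.182) with 5 principal components of the other assays removed. With the means of the ranges removed, chosen after the data had been seen, r in the 6 wide-gap labels was 0.735 to 0.848. Where not stated above, the cause was not tested. Planned count models on recovered reads were not run, as 69 assays leave too few low values for the check of recovered reads that such models require here. Each value of the members rests on 82 reads or more, and the part of depth in the differences between regions was not tested.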
